A study of Homo sapiens with 4 samples.

Results

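The human mitochondrial genome encodes 37 genes, and all of them were listed in the count table examined here: 13 protein genes, 2 rRNAs and 22 tRNAs. They were chosen as the genes whose name starts with MT-, which are 37 of the 60606 genes of the table. RNA had been sequenced from DaroR cells, a darolutamide-resistant line derived from LNCaP, the androgen receptor-positive prostate cancer cell line. Both groups of libraries came from DaroR cells kept in 10 μM darolutamide, an androgen receptor antagonist, and transfected with 20 nM siRNA by a lipid reagent: siControl cells received a control siRNA and siLOC730101 cells a pool of siRNAs against the long noncoding RNA LOC730101. There were 2 libraries in each group, of polyA-selected RNA, and DaroR is 1 derived line, so the values describe that line. The labels do not say whether the 2 libraries of a group came from separate cultures, so that p-values measure only the spread between these libraries, which may be technical.

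Mitochondrial DNA is a small circle that is transcribed on both strands into long precursors. Most mRNAs and both rRNAs are flanked by tRNAs, and cutting the tRNAs out of the precursor releases them. The mRNAs, with the exception of MT-ND6, then receive a poly(A) tail, which in several genes also completes the stop codon. All protein products are core subunits of the respiratory chain or of ATP synthase, where they assemble with many subunits encoded in the nucleus. In cancer cells the same chain regenerates oxidised cofactors as well as driving ATP synthesis.

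LOC730101 itself, listed as ENSG00000216775 on chromosome 6 of hg38 from 52664366 to 52669155, had a normalized CPM (counts scaled to library size with TMM factors) of 47.4 and 50.6 in the siControl libraries and 15.4 and 17.9 in the siLOC730101 libraries. Its log2 fold change was -1.56, past the threshold in edgeR. Library totals ranged from 39213498 to 53368158 counts, and the siLOC730101 libraries were the smaller ones. The 10 luminal prostate markers were all above 1 CPM in every library and summed to between 9043 and 9969 CPM. The 12 markers of basal, immune, endothelial and stromal cells summed to between 17.4 and 22.03 CPM. Of these 12, 2 were above 1 CPM in every library and 10 were under 1 CPM in all. TP63, KRT5, PTPRC, CD3E and COL1A2 were at 0 counts. In edgeR's quasi-likelihood test, 0.284% of the 19349 genes tested had an adjusted p under 0.05, with 41 genes higher (0.212%) and 14 genes lower (0.0724%).

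The gene positions carry part of what follows. The table gives the genes on chromosome M of hg38, and their lengths equal those of the GENCODE transcripts used for the sequences below, which were matched by name in a GRCh37 annotation. The genes leave almost no sequence between them: MT-ND3 occupies bases 10059 to 10404 and touches MT-TG on one side and MT-TR on the other. Neighbouring protein genes can also share bases, which are 46 between MT-ATP8 and MT-ATP6, 7 between MT-ND4L and MT-ND4, and 1 between MT-ATP6 and MT-CO3. The counting command had no option to assign a read to more than 1 gene, so reads on shared bases count for neither gene at its defaults. The last 90 bases of MT-ATP8 are shown because the overlap, in capitals, is a large part of this 207-base gene.

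MT-ATP8: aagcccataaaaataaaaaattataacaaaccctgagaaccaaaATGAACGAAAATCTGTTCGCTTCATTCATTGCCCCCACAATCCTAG

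Of the 13 protein genes, 7 end in a complete stop codon and 6 (MT-ND1, MT-ND2, MT-CO3, MT-ND3, MT-ND4 and MT-CYB) end in T or TA, to which the tail adds the missing bases. The last 30 bases of the genes with the lowest and the highest log2 fold change among the protein genes, MT-CO3 and MT-ND3, and of the most abundant mRNA, MT-CO1, are given with the encoded part of the stop codon in capitals.

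MT-CO3: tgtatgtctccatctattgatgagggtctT
MT-ND3: gactacaaaaaggattagactgaaccgaaT
MT-CO1: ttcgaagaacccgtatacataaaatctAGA

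MT-CO3 and MT-ND3 thus end in the same way and lie next to each other, with only MT-TG between them, although their fold changes lie at opposite ends.

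Mitochondrial RNA took a smaller share of the library after LOC730101 knockdown. The 37 genes held 3.09% and 3.17% of all counts in the siControl libraries and 2.64% and 2.76% in the siLOC730101 libraries. Both siLOC730101 libraries lay below both siControl libraries, and the difference of means was -0.43 percentage points (3.13% ± 0.0581 against 2.698% ± 0.0827, SD, n = 2). The two-sided exact permutation test gave p = 0.333, the smallest value that 2 libraries against 2 allow. The protein genes moved in the same direction, with 2.33% and 2.32% in siControl and 1.98% and 2.02% in siLOC730101. The rRNAs held 0.761% and 0.847% in siControl and 0.659% and 0.737% in siLOC730101, again without overlap. In normalized CPM, given below, the groups overlapped for both rRNAs. The tRNA genes were a trace of each library, between 0.00170% and 0.00181% of the counts. A share of counts can also fall when other RNA rises. In RNA from whole cultures this, fewer cells with much mitochondrial RNA and less mitochondrial RNA per cell cannot be told apart.

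No member passed the threshold by itself in edgeR. Of the 37 members, 20 passed the expression filter (all protein genes and rRNAs and 5 tRNAs), and 0 of these 20 had an adjusted p under 0.05. At an unadjusted p under 0.05, 8 members were lower and 2 were higher, against 4.39% lower and 6.43% higher among all genes tested. DESeq2, at an adjusted p under 0.05, called 5 members lower (MT-CO1, MT-ATP6, MT-CO3, MT-ND5 and MT-CYB) and 0 higher, against 0.661% of its 9525 genes called lower. The median log2 fold change over the 15 protein genes and rRNAs was -0.16, against -0.0021 over all genes tested, and 12 of the 15 were below 0. Both siLOC730101 libraries lay below both siControl libraries in 9 of these 15 genes and above them in 2, MT-ATP8 and MT-ND4L, while the groups overlapped in 4. Among all genes tested, the groups were separated downward in 20.5% and upward in 21.3%.

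**Figure D1:**
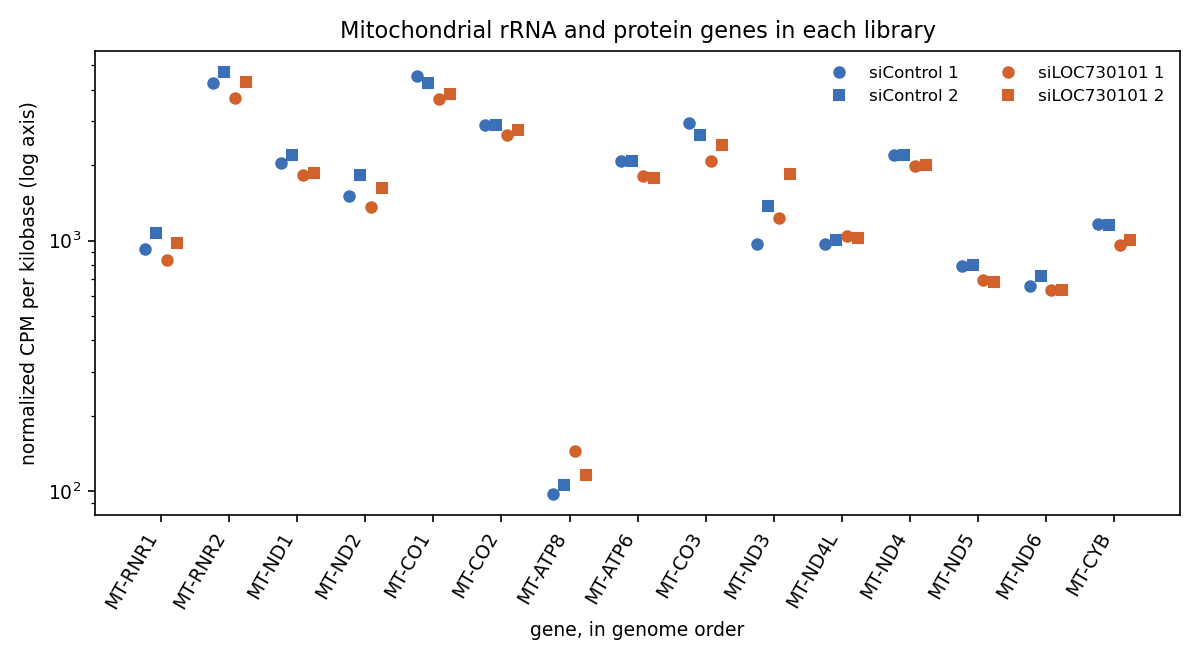
Normalized CPM per kilobase of gene (log axis) of the 13 protein genes and 2 rRNAs in genome order, with 1 point for each of the 4 libraries. MT-RNR2 and MT-CO1 had the highest values and MT-ATP8 the lowest, and in 9 genes both siLOC730101 points lay below both siControl points.

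Per length, MT-RNR2, the rRNA of the large mitochondrial ribosomal subunit, and MT-CO1, the catalytic core of cytochrome c oxidase, ranked as the 2 most abundant RNAs of the whole table in every library. MT-RNR2 had 4252 and 4711 CPM per kilobase in siControl and 3696 and 4286 in siLOC730101. MT-CO1 had 4539 and 4255 in siControl and 3682 and 3856 in siLOC730101. The ranges of these leading genes overlapped within siControl, so neither was the higher. The plot of levels shows the order below them in siControl: MT-CO2 and MT-CO3 overlapped near 2643 to 2939 CPM per kilobase, MT-ND4, MT-ND1 and MT-ATP6 lay between 2034 and 2192, and MT-ND2 had 1500 and 1826. MT-CYB, MT-ND3, MT-ND4L and MT-RNR1 overlapped in part between 927 and 1372, followed by MT-ND5 with 790 and 795 and MT-ND6 with 661 and 721. MT-ATP8 had the lowest value with 97.7 and 105 CPM per kilobase in siControl and 145 and 116 in siLOC730101. MT-ATP8 and MT-ATP6 are carried on the same mRNA, and MT-ATP6 had 2083 and 2084 CPM per kilobase in siControl. Of the 207 bases of MT-ATP8, 161 are not shared with MT-ATP6. A read that starts there and reaches MT-ATP6 counts for neither gene, so the values per kilobase of these genes need not be comparable.

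Complex IV, cytochrome c oxidase, passes electrons to oxygen, and its 3 mitochondrial subunits were each lower in both siLOC730101 libraries. MT-CO1 had a normalized CPM of 6999 and 6561 in siControl and 5677 and 5946 in siLOC730101. The log2 fold change was -0.22 ± 0.060 (SE, edgeR adjusted p = 0.143). MT-CO2, which carries the site that accepts electrons from cytochrome c, had 1981 and 1979 in siControl and 1806 and 1890 in siLOC730101, a log2 fold change of -0.10 ± 0.063 (SE, edgeR adjusted p = 0.619). The siControl values of MT-CO2 were almost equal, and the gap to the nearer siLOC730101 library was wider than the gap between them. MT-CO3 had 2304 and 2072 in siControl and 1628 and 1893 in siLOC730101. It had the lowest log2 fold change of the protein genes and rRNAs, -0.31 ± 0.079 (SE, edgeR adjusted p = 0.116), and an adjusted p of 0.00788 in DESeq2. The groups did not overlap. The median over the 3 subunits was -0.22.

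Complex III hands electrons from ubiquinol to cytochrome c, and cytochrome b, encoded by MT-CYB, is its only mitochondrial subunit. MT-CYB had a normalized CPM of 1333 and 1318 in siControl and 1094 and 1141 in siLOC730101. The libraries of a group were close together and the groups lay well apart. The log2 fold change was -0.25 ± 0.065 (SE, edgeR adjusted p = 0.135), a change of -15.7%, and the adjusted p was 0.00528 in DESeq2.

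Complex V is ATP synthase, and its mitochondrial subunits belong to the membrane part through which protons flow. MT-ATP6 had a normalized CPM of 1418 and 1419 in siControl and 1233 and 1208 in siLOC730101, a log2 fold change of -0.22 ± 0.064 (SE, edgeR adjusted p = 0.175). MT-ATP8, counted on the other end of the same mRNA, had 20.2 and 21.8 in siControl and 29.9 and 23.996 in siLOC730101. Here both siLOC730101 libraries were the higher ones. The log2 fold change was 0.36 ± 0.131 (SE, edgeR adjusted p = 0.290). Its counts were 1093 and 1020 in siControl and 1230 and 911 in siLOC730101, so that MT-ATP8 rests on far fewer counts than MT-ATP6, with 45877 or more in each library. The opposite directions of these genes on 1 mRNA were measured on gene lengths of 207 and 681 bases.

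Complex I takes electrons from NADH, and its 7 mitochondrial subunits form the core of the proton-pumping membrane arm. Their median log2 fold change was -0.13, with 5 of 7 below 0. MT-ND5 had a normalized CPM of 1432 and 1440 in siControl and 1260 and 1235 in siLOC730101 (log2 fold change -0.20 ± 0.064, SE, edgeR adjusted p = 0.211). MT-ND1 had 1945 and 2095 in siControl and 1740 and 1781 in siLOC730101 (-0.20 ± 0.065, SE, edgeR adjusted p = 0.235). In both genes the groups were apart. MT-ND4 had 3010 in each siControl library and 2734 and 2756 in siLOC730101, a log2 fold change of -0.13 ± 0.060 (SE, edgeR adjusted p = 0.446) with the groups apart. MT-ND4L, on the same mRNA as MT-ND4, had 287.7 and 298.1 in siControl and 309.5 and 302.8 in siLOC730101. Its log2 fold change was 0.064 ± 0.072 (SE, edgeR adjusted p = 0.822), with both siLOC730101 libraries just above both siControl libraries. MT-ND2 had 1563 and 1902 in siControl and 1418 and 1689 in siLOC730101, a log2 fold change of -0.16 ± 0.093 (SE, edgeR adjusted p = 0.584) with overlapping groups.

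MT-ND3 had the highest log2 fold change of the protein genes. It had a normalized CPM of 333.8 and 474.8 in siControl and 426.3 and 639.8 in siLOC730101, and the groups overlapped. In each group the replicate 2 library was higher than the replicate 1 library, 1.42-fold in siControl and 1.501-fold in siLOC730101. The log2 fold change was 0.40 ± 0.157 (SE, edgeR adjusted p = 0.337, DESeq2 adjusted p = 0.739). It was 0.68 without siControl replicate 2 and 0.67 without siLOC730101 replicate 1, both past the threshold in edgeR, and it was 0.17 without siControl replicate 1 and 0.075 without siLOC730101 replicate 2, so that the size and the call rested on which library was left out. As a share of all mitochondrial protein counts, MT-ND3 took 1.45% and 2.07% in siControl and 2.16% and 3.07% in siLOC730101. The log2 ratio of its counts per kilobase to those of the other 11 heavy-strand protein genes was -4.46 and -3.95 in siControl and -3.89 and -3.37 in siLOC730101. On this ratio, chosen after values were seen, both siLOC730101 libraries were above both siControl libraries (two-sided exact permutation p = 0.333). The nearest values of the groups, -3.95 and -3.89, lay closer together than the replicates of either group.

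MT-ND6 encodes the remaining complex I subunit, and it is the only protein gene transcribed from the light strand. Its normalized CPM was 347.1 and 378.4 in siControl and 334.5 and 332.4 in siLOC730101, a log2 fold change of -0.12 ± 0.074 (SE, edgeR adjusted p = 0.597). The log2 ratio of MT-ND6 to the 12 heavy-strand protein genes, in counts per kilobase within a library, was -5.07 and -4.96 in siControl and -4.93 and -5.05 in siLOC730101. The groups overlapped on this ratio and differed by 0.026 (two-sided exact permutation p = 0.667), and the sign changed when siControl replicate 1 (-0.025) or siLOC730101 replicate 1 (-0.033) was left out. Without a strand option in the counting, reads of the transcript running antisense to MT-ND6 cannot be told apart from those of MT-ND6.

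The rRNAs form the mitochondrial ribosome together with proteins imported from the cytosol. MT-RNR1, of the small subunit, had a normalized CPM of 884.6 and 1024 in siControl and 795.0 and 931.5 in siLOC730101. MT-RNR2 had 6628 and 7345 in siControl and 5762 and 6682 in siLOC730101. The groups overlapped for both rRNAs, with replicate 2 the higher library of each group. The log2 fold changes were -0.14 ± 0.087 for MT-RNR1 (SE, edgeR adjusted p = 0.589) and -0.17 ± 0.073 for MT-RNR2 (SE, edgeR adjusted p = 0.425). Relative to the protein genes, the log2 ratio of rRNA counts per kilobase was -2.14 and -2.01 in siControl and -2.15 and -2.04 in siLOC730101, a difference of -0.020 (two-sided exact permutation p = 0.667), whose sign changed without siControl replicate 2 (0.047) and without siLOC730101 replicate 1 (0.036). The log2 ratio of MT-RNR2 to MT-RNR1 was 2.20 and 2.13 in siControl and 2.15 and 2.13 in siLOC730101. The groups overlapped on both ratios. These RNAs carry short tails, and the level seen in polyA-selected RNA need not be that in total RNA.

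**Figure D2:**
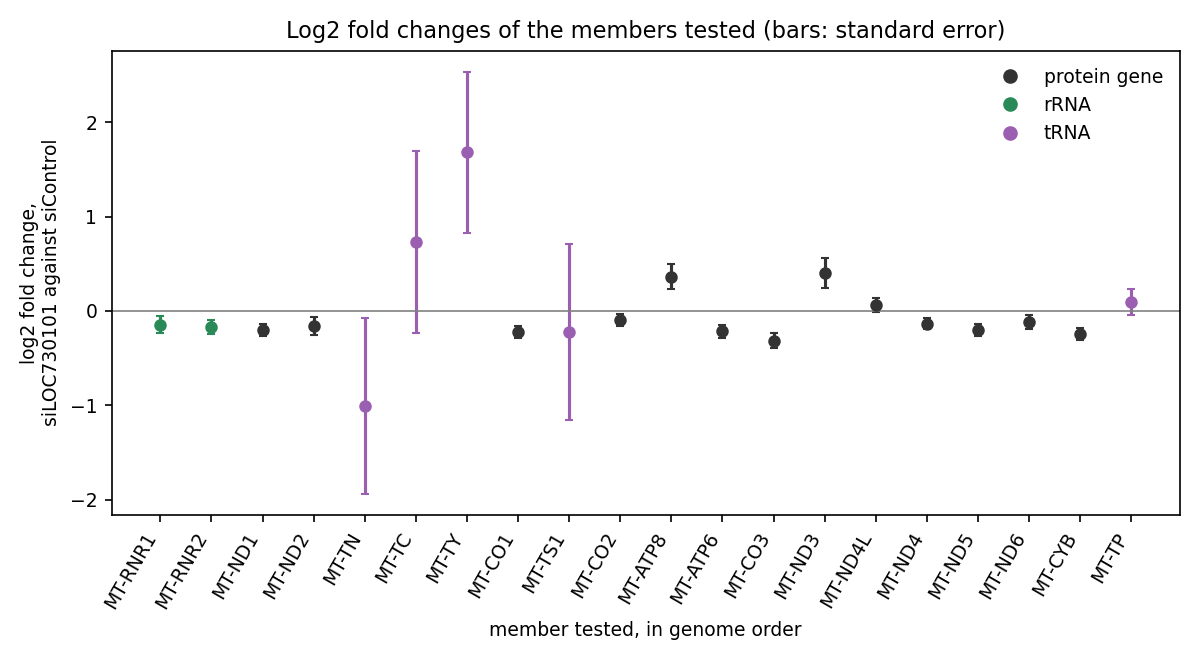
Log2 fold change of siLOC730101 against siControl (edgeR) for the 20 members tested, in genome order, with bars of 1 standard error. The protein genes and rRNAs lie between -0.31 and 0.40 with short bars, while MT-TN, MT-TC, MT-TY and MT-TS1 have standard errors of 0.85 to 0.97.

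The calls depended on the libraries entered. Leaving out siLOC730101 replicate 2 gave 7 members lower (MT-RNR1, MT-RNR2, MT-ND1, MT-ND2, MT-CO1, MT-CO3 and MT-CYB), and leaving out siLOC730101 replicate 1 gave 5 lower (MT-CO1, MT-ATP6, MT-CO3, MT-ND5 and MT-CYB) with MT-ND3 higher. Without siControl replicate 2, MT-CO3 was lower and MT-ND3 higher, and without siControl replicate 1 no member was called. MT-CO1, MT-CO3 and MT-CYB were thus called in both fits without a siLOC730101 library. Over all genes these fits called 77 higher and 60 lower without siLOC730101 replicate 2, 923 higher and 272 lower without siLOC730101 replicate 1, and 111 higher and 26 lower without siControl replicate 2. Without siControl replicate 1, where no member was called, 117 genes were higher and 49 lower. Genes tested in these fits numbered 21677 without siLOC730101 replicate 2, 21482 without siLOC730101 replicate 1, 20425 without siControl replicate 2 and 20656 without siControl replicate 1. The direction of each of the 15 protein genes and rRNAs was the same in all 15 alternative settings. These settings draw on the same 4 libraries, so they are not independent checks. Some values came near 0, with a log2 fold change of -0.0058 for MT-ND2 without siControl replicate 2. That of MT-RNR1 was -0.026 without siLOC730101 replicate 1.

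The tRNA genes, whose products decode the mitochondrial mRNAs, had few counts in polyA-selected RNA, and most of these lay on minus-strand genes. Many tRNA genes touch a neighbour, as MT-TG touches MT-CO3 and MT-ND3. A read that reaches into a neighbouring gene counts for neither, so few counts need not mean little tRNA or precursor RNA. On the plus strand of the table, whose genes lie in the heavy-strand transcript, 10 of 14 tRNA genes had 0 counts in all 4 libraries and the other 4 held 11 counts together. A count of 0 allows up to 3 counts, which is 0.0562 to 0.0765 CPM depending on the library and covers counting error only. On the minus strand, 1 of 8 tRNA genes, MT-TQ, had 0 counts in all libraries and the 8 genes held 3124 counts, of which 2850 lay on MT-TP. Without a strand option, counts on a minus-strand tRNA gene can come from either transcript.

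MT-TP, the proline tRNA, is on the minus strand at chrM:15956-16023 and is the last gene before the noncoding control region. MT-TT, the threonine tRNA, is its neighbour on the plus strand at chrM:15888-15953. Both are printed 5′ to 3′ on their own strand, in lower case throughout, because they lie 2 bases apart and differ most in counts.

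MT-TP: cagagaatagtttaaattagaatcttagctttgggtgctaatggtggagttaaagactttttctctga
MT-TT: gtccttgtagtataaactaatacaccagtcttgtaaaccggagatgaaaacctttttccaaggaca

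MT-TP had 821 and 729 counts in siControl and 676 and 624 in siLOC730101, whereas MT-TT had 1 count in siControl replicate 2 and 0 in the other libraries. In normalized CPM, MT-TP had 15.2 and 15.6 in siControl and 16.5 and 16.4 in siLOC730101. Both siLOC730101 libraries were slightly above, with a log2 fold change of 0.097 ± 0.138 (SE, edgeR adjusted p = 0.876). The log2 ratio of all tRNA counts per kilobase to those of the protein genes was -6.52 and -6.56 in siControl and -6.24 and -6.33 in siLOC730101, a difference of 0.25 without overlap (two-sided exact permutation p = 0.333), and MT-TP supplied most of the counts in it.

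The remaining tRNA genes that were tested held between 6 and 34 counts in a library. MT-TN, the asparagine tRNA, had 27 and 17 counts in siControl and 10 and 7 in siLOC730101. MT-TY, the tyrosine tRNA, had 16 and 6 in siControl and 34 and 21 in siLOC730101. These nearby genes therefore differed in opposite directions without overlap, with log2 fold changes of -1.003 (edgeR adjusted p = 0.775) and 1.68 (edgeR adjusted p = 0.509). MT-TC, the cysteine tRNA, had 14, 11, 9 and 23 counts in siControl 1, siControl 2, siLOC730101 1 and siLOC730101 2, and its direction turned without siLOC730101 replicate 2. MT-TS1, a serine tRNA, had 18, 18, 8 and 16 counts in the same order, and its direction turned without siLOC730101 replicate 1. At this depth no change of these tRNA genes was detectable.

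**Figure D3:**
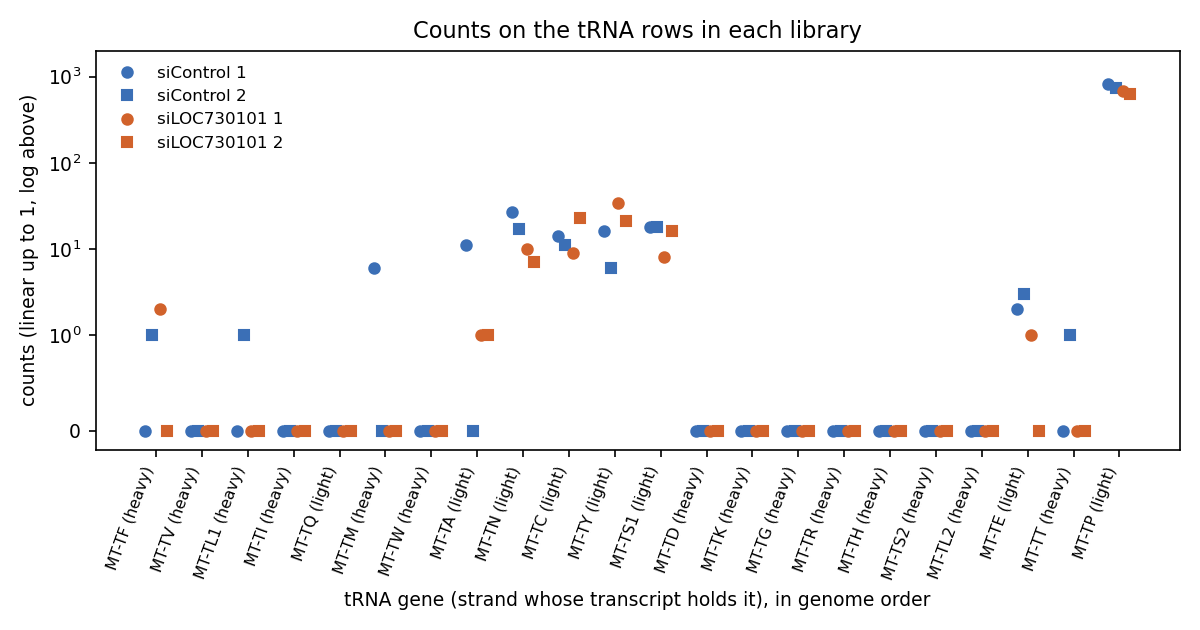
Counts of the 22 tRNA genes in each library, in genome order, on an axis that is linear up to 1 and logarithmic above; the strand whose transcript holds the tRNA is given in brackets. Apart from MT-TP, no tRNA gene exceeded 34 counts, and 10 of the 14 genes of the heavy-strand transcript were at 0 in all libraries.

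Among the 15 protein genes and rRNAs, the tRNA genes left aside, the shorter genes had the higher fold changes. The 4 of at most 600 bases, MT-ATP8, MT-ND4L, MT-ND3 and MT-ND6, had a median log2 fold change of 0.21 and included the 3 of these 15 genes that were above 0. The 5 genes of 600 to 1000 bases had a median of -0.20, and the 6 of 1000 to 2000 bases had a median of -0.19. Across the 13 protein genes, the Spearman correlation of log2 fold change with length was -0.66, and it was -0.61 across the 15 with the rRNAs, given as a description, since the points share the 4 libraries and neighbouring genes share mRNAs. Abundant nuclear genes, those with a mean count above 1000, also differed by length, with a Spearman correlation of -0.42 over 7731 genes. Their median was 0.39 in 17 genes of at most 600 bases, 0.29 in 47 genes of 600 to 1000 bases and 0.20 in 404 genes of 1000 to 2000 bases, and it was 0.00075 in 5678 genes above 4000 bases. All 11 protein genes and rRNAs of 600 to 2000 bases lay below the median of nuclear genes of their length class. Of the 4 shorter ones, MT-ATP8 and MT-ND3 lay near the median of their class, and MT-ND4L and MT-ND6 lay below it. The medians of the nuclear classes up to 2000 bases depended on the siLOC730101 libraries: that of the shortest class was 0.57 without replicate 1 and 0.20 without replicate 2. The part of length in the values of the members was not tested.

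**Figure D4:**
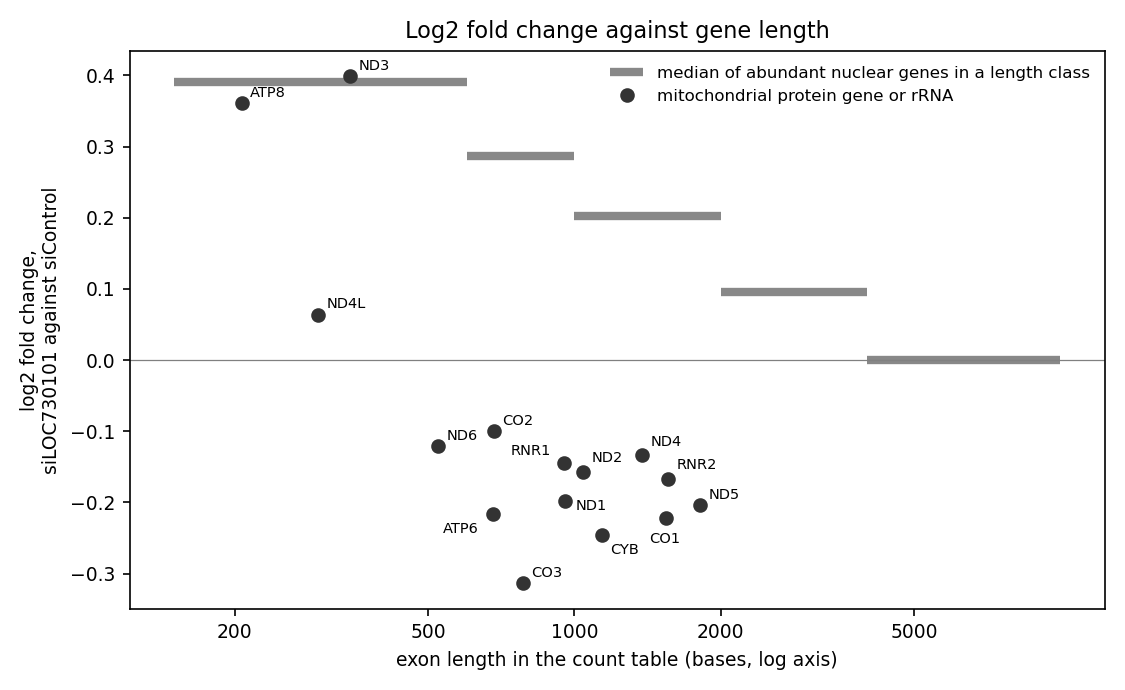
Log2 fold change (siLOC730101 against siControl) against exon length in bases (log axis) for the 15 mitochondrial protein genes and rRNAs (points), with grey lines at the median of nuclear genes with a mean count above 1000 in each length class. All points from 525 bases upward lie below 0 and below every grey line, and MT-ATP8 and MT-ND3 lie near the line of the shortest class.

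The respiratory complexes also need subunits encoded in the nucleus, and most of these had a log2 fold change above 0. Of 75 such subunits, all tested, 10 were higher and 0 lower in edgeR at an adjusted p under 0.05. Among all genes tested, edgeR called 0.212% higher and 0.0724% lower. Of the 75 subunits, 72 had a log2 fold change above 0, with a median of 0.27, against 49.6% of all genes tested above 0. DESeq2 called 23 higher and 0 lower, against 2.46% of its genes called higher. Abundant nuclear genes of up to 2000 bases, described above, had like values, with 88.2% to 93.6% above 0 in their length classes. By complex, the calls were 3 of 37 in complex I (NDUFA3, NDUFB1 and NDUFS6, median of the complex 0.25), 2 of 9 in complex III (UQCRC2 and UQCRQ, 0.35), 3 of 11 in complex IV (COX5B, COX7B and COX7C, 0.40) and 2 of 18 in complex V (ATP5F1E and ATP5PF, 0.27). COX7C, a small subunit of cytochrome c oxidase, had a normalized CPM of 188 and 204 in siControl and 265 and 308 in siLOC730101 (log2 fold change 0.55, edgeR adjusted p = 0.00954). UQCRQ, which binds next to cytochrome b, had 98.5 and 102 in siControl and 142 and 164 in siLOC730101 (0.61, edgeR adjusted p = 0.00416). UQCRC2, a core subunit of complex III, had 5.20 and 6.11 in siControl and 90.7 and 188 in siLOC730101, so that its siControl level lay far below those of its partners. Its call was lost with robust moderation in edgeR (adjusted p = 0.252), and that of COX7B without siControl replicate 1 (adjusted p = 0.0676, edgeR). UQCRC2 was left out of the ratios that follow. The 10 genes called had exon lengths of 887 to 5081 bases, and the part of length in their values was not tested.

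The ratio of mitochondrial to nuclear subunit counts within a library was lower after LOC730101 knockdown in each complex. For complex IV, the log2 ratio of mitochondrial to nuclear subunit counts was 3.00 and 2.90 in siControl and 2.48 and 2.28 in siLOC730101, a difference of -0.57. For complex III it was 0.45 and 0.39 in siControl and -0.034 and -0.21 in siLOC730101, a difference of -0.54. The groups did not overlap in either. Complex I (1.94 and 2.02 against 1.67 and 1.55, difference -0.37) and complex V (-1.50 and -1.52 against -1.77 and -1.96, difference -0.36) were separated as well. Over all complexes the ratio was 1.39 and 1.36 in siControl and 1.03 and 0.91 in siLOC730101, a change of -24.6%. Each of these 5 ratios gave a two-sided exact permutation p of 0.333, and none depends on how the libraries were scaled. They also carry the higher nuclear counts. Median log2 fold changes in complexes I, III, IV and V were 0.25, 0.35, 0.40 and 0.27 for nuclear subunits, UQCRC2 included. For mitochondrial subunits they were -0.13, -0.25, -0.22 and 0.072. The part of each side in the ratios was not tested.

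**Figure D5:**
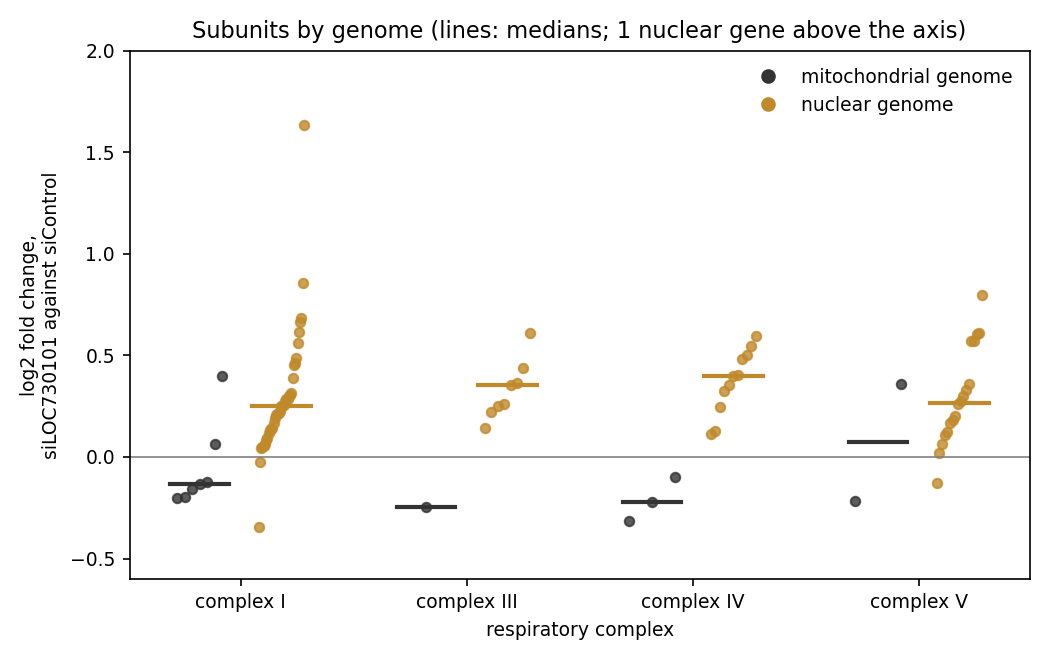
Log2 fold change (siLOC730101 against siControl) of the subunits of complexes I, III, IV and V, by the genome that encodes them; each point is a gene, ordered by value, and lines are medians. UQCRC2, with a log2 fold change of 4.63, lies above the axis, and the medians of the mitochondrial subunits lie below those of the nuclear subunits in each complex.

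Genes that make, process and translate mitochondrial RNA had a median log2 fold change of 0.055. Of 78 names in this list, 75 were in the table and 74 were tested. Of these 74, 1 was higher and 0 lower in edgeR, against 0.212% of all genes tested called higher. DESeq2 gave an adjusted p to 66 of them and called 2 higher and 0 lower, against 2.46% of its genes called higher. The gene that passed in edgeR was SLIRP, which binds mitochondrial mRNAs together with LRPPRC and stabilises them. SLIRP had a normalized CPM of 25.0 and 25.7 in siControl and 43.3 and 42.5 in siLOC730101, a log2 fold change of 0.76 ± 0.104 (SE, edgeR adjusted p = 0.00333). Its partner LRPPRC had 583 and 595 in siControl and 581 and 533 in siLOC730101, a log2 fold change of -0.081. POLRMT, the mitochondrial RNA polymerase, had a log2 fold change of 0.027, TFAM, which packages the genome and starts transcription, of 0.11, MTPAP, the poly(A) polymerase, of 0.087, and TUFM, the elongation factor, of 0.14. None of these 5 passed the threshold, and their adjusted p-values lay between 0.530 and 0.951 (edgeR). The directions of POLRMT and MTPAP depended on the scaling or on the library left out.

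Pieces of mitochondrial DNA copied into nuclear chromosomes can resemble the members closely enough to share reads with them. The table listed 402 such copies, of which 306 had 0 counts in all libraries and 13 were tested. In edgeR, 1 of the 13 was lower and 0 higher, against 0.0724% of all genes tested called lower. The median log2 fold change of the 13 was -0.58, and 11 were below 0. Both siLOC730101 libraries lay below both siControl libraries in 6 copies and above them in 0. Among all genes tested these shares were 20.5% and 21.3%. MTATP6P1, MTND2P28 and MTCO1P12 held 85.8% of all counts on copies, and all 3 lie in the same stretch of chromosome 1 of hg38. No other copy held more than 584 counts over the 4 libraries. MTATP6P1 had 2741 and 1820 counts in siControl and 1579 and 1500 in siLOC730101 (log2 fold change -0.20, edgeR adjusted p = 0.584). MTCO1P12 had 315 and 277 in siControl and 232 and 172 in siLOC730101 (-0.21, edgeR adjusted p = 0.815). The copy that passed the threshold was MTND2P28, on the plus strand at chr1:629640-630683, with 1033 and 1118 counts in siControl and 437 and 330 in siLOC730101. The groups lay far apart, with a log2 fold change of -1.15 ± 0.163 (SE, edgeR adjusted p = 0.00416), while its parent MT-ND2 had -0.16.

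Over 1042 aligned bases MTND2P28 differed from MT-ND2 at 17, an identity of 98.4%, and the longest stretch without a difference was 266 bases. Bases 433 to 522 of both transcripts are given, with the 5 differing bases in capitals, to show how few bases decide where a read is placed. This stretch was chosen as a window of 90 bases with the most differences, so other stretches hold as many or fewer.

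MT-ND2: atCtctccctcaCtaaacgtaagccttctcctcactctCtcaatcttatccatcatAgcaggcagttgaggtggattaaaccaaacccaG
MTND2P28: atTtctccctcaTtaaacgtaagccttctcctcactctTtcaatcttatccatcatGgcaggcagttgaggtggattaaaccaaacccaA

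The counts on MTND2P28 were 1.22% and 1.26% of those on MT-ND2 in siControl and 0.750% and 0.515% in siLOC730101, and they are few beside those of the parent in every library. For MTATP6P1 the share of MT-ATP6 was between 2.74% and 3.58%, and for MTCO1P12 the share of MT-CO1 was between 0.0762% and 0.0995%. How reads with equal matches were placed is not given in the sources used here, and the counts of the copies are uncertain for that reason.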

How the data were processed

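The members, the gene lists and the tests were chosen with earlier results of these data known. RNA of 4 DaroR libraries was measured. The deposited count table holds, without normalization, the reads that the authors assigned to genes with featureCounts 2.0.1 on hg38 and gencode 41, per the file header, whose command has no paired-end, strand, overlap or multi-mapping option. The methods of the paper name STAR with hg19, and the submitters' processing notes name BWA and hg38, so the aligner is uncertain. Among genes with 1 to 20 counts, 66.0% to 70.1% were even. If mates were counted apart, fragments are fewer than counts.

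Counts were filtered with filterByExpr, scaled with TMM and tested with the quasi-likelihood test of edgeR 4.0.16 (legacy setting) in R 4.3.3, with the condition as the only term. Standard errors are those of the log2 fold change, and p-values were adjusted by Benjamini-Hochberg over the 19349 genes tested. DESeq2 1.42.0 was an alternative. Shares and ratios within a library were compared by exact permutation tests over the libraries in Python 3.11.15 with scipy 1.17.1, and their smallest p is 0.333. The fit was checked on simulated counts. Alternatives were other scalings, other filters, other edgeR settings, halved counts, the replicate number as a block and leaving out each library.

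Genes named are all 37 members, LOC730101, the copies with an adjusted p under 0.05 and the 3 with the highest mean count, and, of the expression and partner lists, those with an adjusted p under 0.05 with POLRMT, TFAM, LRPPRC, SLIRP, MTPAP, TUFM and UQCRC2. The length classes, the ratios of MT-ND3 and MT-RNR2 and those of mitochondrial to nuclear subunits were chosen after values were seen. LOC730101 was identified by its position in the RefSeq gene table (GRCh38.p14). Sequences of members and copies were copied by name from the GENCODE transcripts of a GRCh37 annotation, and pairs were aligned with biopython 1.88. Amino acid sequences were not used here.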

Additional observations from a re-analysis of the deposited data

How the results depend on the processing

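With 2 libraries in a group, a share or ratio cannot pass a permutation test, and a fit that leaves out a library assumes that the lone library varies like the other group. All settings draw on the same 4 libraries. The direction of the 15 protein genes and rRNAs was the same in all 15 settings, as was that of 18 of the 20 tested members in the settings that gave them a value (MT-TN, MT-TC, MT-TY and MT-TS1 had none with a mean count above 50, and of these only MT-TY had one with halved counts). The number of members called lower was 0, and it was 2 with library size only, 3 with no filter beyond 1 count (and 1 higher, MT-ND3), 1 with a mean count above 50, 5 in DESeq2, and 0 to 7 without any 1 library (0 to 1 higher). The median over the 15 was -0.20 with library size only and lay between -0.21 and -0.097 without any 1 library. Library size only moved the median of all genes to -0.039 from -0.0021. Calls over all genes were 41 higher and 14 lower, and they were 35 lower with library size only, 324 and 113 with no filter beyond 1 count, 141 and 50 with a mean count above 50, 87 and 24 with the legacy method off, 113 and 35 with halved counts, 234 and 63 in DESeq2, and 77 to 923 higher and 26 to 272 lower without any 1 library. Nuclear partner subunits called higher were 29 with no filter, 16 with a mean count above 50, 23 in DESeq2 and 10 to 53 without any 1 library (53 without siLOC730101 replicate 1), and UQCRC2 lost its call with robust moderation and COX7B without siControl replicate 1. Expression genes called higher were 2 with no filter, with a mean count above 50 and in DESeq2, and 1 to 4 without any 1 library. Copies called lower were 2 with no filter and 1 to 2 without any 1 library. Replicates with the same number deviated together with a correlation of 0.029 over 14245 genes. Over the 15 protein genes and rRNAs the correlation of the replicate differences was 0.58, with the same sign in both groups in 6 genes. Whether the numbers pair the libraries is therefore not known. With the replicate block, 7 members were lower (MT-RNR2, MT-ND1, MT-CO1, MT-ATP6, MT-CO3, MT-ND5 and MT-CYB) and 1 higher (MT-ND3), 485 genes were higher and 167 lower, and 33 partner subunits were higher, 2 expression genes higher and 2 copies lower. Directions turned for POLRMT (-0.0039 with upper-quartile factors, -0.010 with library size only, -0.020 to 0.079 without any 1 library), MTPAP (-0.031 to 0.22), MTATP6P1 (-0.38 to 0.0043), MT-TC (-0.17 to 1.29), MT-TS1 (-0.87 to 0.24), the ratio of MT-ND6 (-0.033 to 0.084) and that of rRNA to protein genes (-0.087 to 0.047). The ratio of tRNA to protein genes lay between 0.21 and 0.30, and the share of counts between -0.49 and -0.37 percentage points, without any 1 library. The causes of these changes were not tested.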
